A study of Mus musculus with 24 samples.

Results

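The glutathione S-transferases of the Mu class (Gstm1 to Gstm7) and the Pi class (Gstp1 and Gstp2) were followed in mouse colon with and without a constitutively active NRF2, a transcription factor. Members were the 9 genes whose symbol in the deposited transcript tables matched one of these names, 7 of the Mu and 2 of the Pi class, out of 23329 gene symbols, and all 9 passed the filter on low counts in every fit. Messenger RNA had been sequenced in 24 libraries of C57Bl/6 mice, 4 in each of 6 groups. All mice carried VilCre, a Cre recombinase driven by the villin promoter and thus active in gut epithelium, and the transgenic ones also carried the caNrf2 transgene (genotype VilCre-CMVcaNrf2). The groups were epithelial cells of VilCre controls and of transgenic mice, both without treatment, and pieces of whole colon wall of both genotypes, each either untreated or treated with dextran sulfate sodium (DSS), a chemical that injures the colon lining. The series title and design text place the comparison on the transgene, on DSS and on both together, in wall and in epithelium. The sources used here do not give age, the dose and time of DSS or the way epithelial cells were isolated. The design text speaks of triplicates while 4 libraries per group were used, and nothing says that they came from separate animals, so a p-value reflects no more than the spread among these libraries, part of which may be technical.

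Glutathione S-transferases join the tripeptide glutathione to reactive, electrophilic compounds, and the conjugates are then pumped out of the cell by ABC transporters. The Mu and Pi enzymes are soluble and work as dimers. NRF2, encoded by Nfe2l2, is held at a low level by KEAP1 until oxidants or electrophiles release it, after which it pairs with a small MAF protein on antioxidant response elements and drives genes of glutathione synthesis and conjugation. Pi class enzyme is a long-known marker of transformed cells and, in the colon, part of the barrier against dietary and bacterial electrophiles.

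The 7 Mu genes lie in one cluster on mouse chromosome 3 and the Pi pair side by side on chromosome 19 (mm10, positions from the deposited tables). On chromosome 3, from low to high coordinate, stand Gstm5 (107895854 to 107898685, plus strand), Gstm7 (107926334 to 107931745), Gstm6 (107938848 to 107943749), Gstm3 (107963696 to 107969174), Gstm2 (107981702 to 107986436), Gstm1 (108012250 to 108017973) and Gstm4 (108040408 to 108044859). All but Gstm5 are on the minus strand, as are Gstp1 (chromosome 19, 4035411 to 4037912) and Gstp2 (4040288 to 4042221). Every Mu gene has 8 exons and each Pi gene 7, and Gstm4 is given as 2 transcripts, which were summed.

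The members are close copies, which bears on how reads were divided between them. The first 60 coding bases are shown for the Pi pair and for 3 Mu genes to make this visible, read from GRCm38 transcripts on the minus strand, 5′ to 3′, with the intron between the start and end of each span removed. In the Gstp2 line, capitals mark bases that differ from Gstp1. In the Gstm3 and Gstm6 lines, they mark bases that differ from Gstm1.
Gstp1 (chr19:4037374-4037863): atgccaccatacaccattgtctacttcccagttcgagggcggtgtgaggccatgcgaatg
Gstp2 (chr19:4041668-4042165): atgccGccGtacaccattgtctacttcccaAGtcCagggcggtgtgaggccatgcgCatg
Gstm1 (chr3:108017403-108017775): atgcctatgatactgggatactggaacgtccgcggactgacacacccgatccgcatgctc
Gstm3 (chr3:107968815-107969140): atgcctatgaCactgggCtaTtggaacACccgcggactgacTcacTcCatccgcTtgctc
Gstm6 (chr3:107943297-107943633): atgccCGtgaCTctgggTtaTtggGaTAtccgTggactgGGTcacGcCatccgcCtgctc

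Gstp2 differed from Gstp1 at 6 of these 60 bases, Gstm3 from Gstm1 at 9 and Gstm6 from Gstm1 at 16. Over the whole coding sequence Gstp1 and Gstp2 were 98.1% identical, Gstm1 and Gstm3 89.4%, Gstm1 and Gstm2 85.9%, and Gstm1 and Gstm5 69.6%, which was the most distant Mu pair with Gstm1. Of all stretches of 50 bases in the transcript, 62.3% of those of Gstp1 and 64.3% of those of Gstp2 occurred letter for letter in the other. The share held in common with another member was 15.8% in Gstm3, 10.9% in Gstm1, 6.88% in Gstm6, 1.08% in Gstm2 and 0 in Gstm4, Gstm5 and Gstm7. The deposited counts are given per transcript. For both Gstm4 transcripts they were fractional (further than 1e-06 from a whole number) in 22 libraries. Whether reads were divided between these 2 transcripts or with another member was not tested. The counts of Gstp1, Gstp2 and Gstm1 were fractional in all 24 libraries, those of Gstm2, Gstm3 and Gstm6 in 23 and those of Gstm5 and Gstm7 in 5. The split between Gstp1 and Gstp2, and to a lesser degree between Gstm1 and Gstm3, is therefore an estimate of the authors' counting program.

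The 100 bases before the transcription start are shown for the Pi pair and for Gstm5, since these are the 3 members whose window of 250 bases before the start held one of the NRF2-type motifs searched (RefSeq promoters, GRCm38.p6, all 9 members matched by symbol). Capitals mark the matched motif.
Gstp1 (chr19:4037913-4038012, minus strand): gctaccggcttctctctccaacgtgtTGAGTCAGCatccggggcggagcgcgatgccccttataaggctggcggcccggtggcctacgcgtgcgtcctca
Gstp2 (chr19:4042222-4042321, minus strand): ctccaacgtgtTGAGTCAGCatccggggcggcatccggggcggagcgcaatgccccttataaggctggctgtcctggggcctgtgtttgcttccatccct
Gstm5 (chr3:107895754-107895853, plus strand): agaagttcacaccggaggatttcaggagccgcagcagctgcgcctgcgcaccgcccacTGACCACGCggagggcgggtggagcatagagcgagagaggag

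Both Pi windows held the same 9 letters, TGAGTCAGC, 74 to 66 bases before the start of Gstp1 and 89 to 81 before that of Gstp2. They match TGANTCAGC, a motif of the NF-E2 type that was found on either strand in 1.02% of 32851 mouse promoter windows of this length, and they contain the shorter TGANTCA, found in 6.75% of windows. The antioxidant response core TGACNNNGC, present in 10.2% of windows, was found only in Gstm5, 42 to 34 bases before its start, and Gstm5 also had TGANTCA 176 to 170 bases before its start. A match is a description of letters and not of binding, and the windows of Gstm1, Gstm2, Gstm3, Gstm4, Gstm6 and Gstm7 held no match to these 3 motifs. The start used is that of the promoter set. It lay 72 bases from the deposited transcript start in Gstm7, 16 in Gstm2 and 15 in Gstm6. In Gstm7 the window ended before the deposited start, so the 72 bases between were not searched.

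Total expected counts were 6683785 to 15399870 per epithelial library and 20232317 to 154335999 per wall library. The epithelial libraries were nearly free of muscle: the summed TPM (the authors' abundance value scaled by transcript length) of 8 smooth muscle markers was 20.5 to 75.9 in control and 21.2 to 105 in transgenic epithelial cells, against 12031 to 13262 in untreated control wall, while 9 epithelium markers summed to 8616 to 17065, 9291 to 17944 and 12646 to 16509. Control replicate 3 and transgenic replicate 1 of the epithelial libraries stood apart, with 29257 and 32026 summed TPM of 8 absorptive colonocyte markers where the other 6 had 2869 to 8812. The first number in the file name differs for the fourth library of each wall group, and the sources used here do not say what it means. Nfe2l2 itself was at 139, 159.99, 203 and 169 CPM in control and 369.7, 343, 291 and 231 in transgenic epithelial cells, and transgenic replicate 2 of the untreated wall, at 147.5 CPM, lay just above the highest untreated control wall library, at 146.2. CPM here are counts scaled to the TMM-adjusted library size, within epithelial or within wall libraries, and the sources used here do not say whether transgene reads count toward Nfe2l2.

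Per length, Gstp1 and Gstm1 were the 2 most abundant members in all 6 groups, and Gstm4, Gstm6 and Gstm7 had medians under 50 TPM in each. In untreated control wall the median over 4 libraries was 822 TPM for Gstp1, 567 for Gstm1, 248 for Gstp2 and 214 for Gstm2. Gstm5 followed at 98.3 TPM, Gstm3 at 74.1, Gstm6 at 36.9, Gstm7 at 23.9 and Gstm4 at 19.3. Neighbours in this order had separate ranges except Gstp2 and Gstm2, which overlapped. In control epithelial cells the medians were 617 TPM for Gstp1, 433 for Gstm1, 197 for Gstm2, 141 for Gstp2, 94.4 for Gstm5 and 59.1 for Gstm3, with Gstm6, Gstm7 and Gstm4 overlapping at 21.7, 17.4 and 17.1. There, too, Gstp2 could not be separated from its neighbour Gstm2, nor Gstm3 from Gstm5.

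The head of the order differed in transgenic samples without DSS. In transgenic epithelial cells Gstm1 had a median of 1304 TPM and Gstp1 one of 1147, with overlapping ranges, and in untreated transgenic wall the medians were 1499.9 and 1079, again overlapping. After DSS, Gstp1 was first in both genotypes, at 517 TPM in controls, apart from Gstm1 at 283, and at 949 in transgenic wall, where its range overlapped that of Gstm1 at 742. As a ratio of the highest to the lowest group median, Gstm3 had the widest span (36.7-fold), from 4.85 TPM in DSS-treated control wall, the last of the 9 there, to 178 in transgenic epithelial cells. Gstm5, a distant relative within the Mu class that corresponds to human GSTM3, had the narrowest (1.45-fold), from 67.6 TPM in DSS-treated transgenic wall to 98.3 in untreated control wall.

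**Figure D1:**
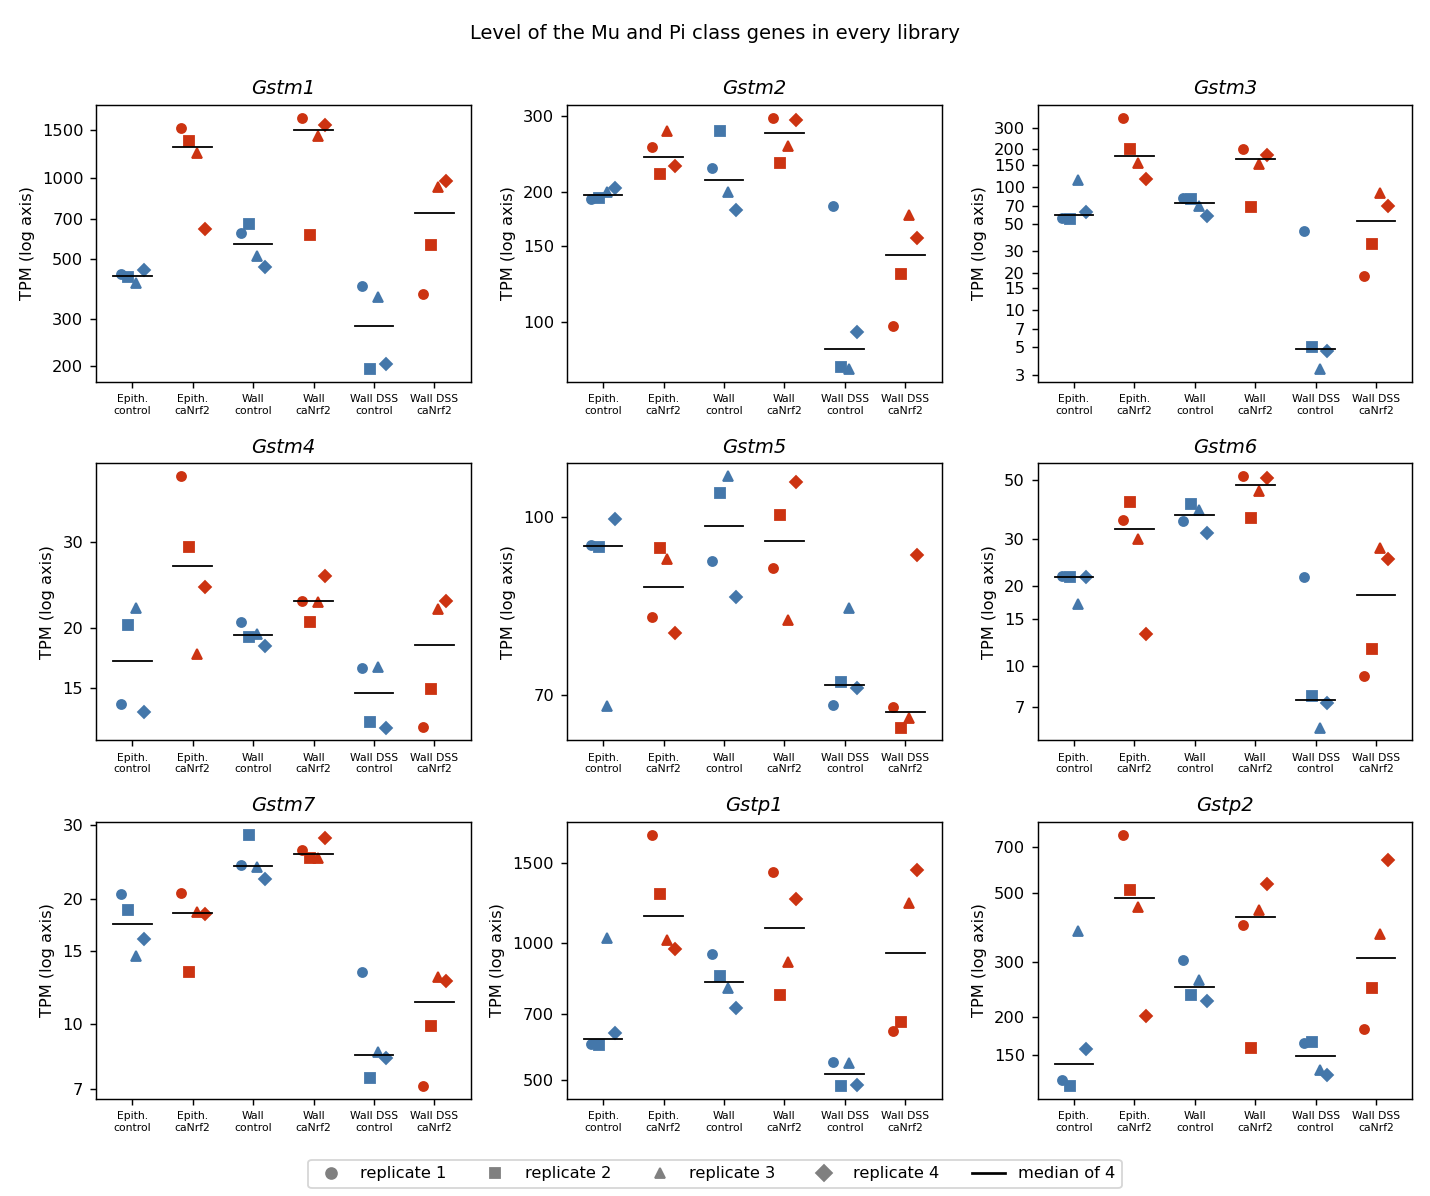
Level of each member in every library, in TPM on a log axis that differs between panels, for epithelial cells (Epith.) and colon wall of control (blue) and caNrf2 (red) mice; symbols are replicates and lines group medians. Gstm1 reaches medians of 1304 and 1499.9 TPM in the transgenic groups without DSS, and Gstm3 falls to 4.85 TPM in DSS-treated control wall.

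In epithelial cells, the transgenic libraries had more of the main Mu and Pi transcripts than controls in fitted value, but no member passed the threshold over all genes. Gstm1 and Gstm3 had the largest fitted differences, and Gstm1 alone had groups that did not overlap. Gstm1, a broad Mu enzyme whose human counterpart is often deleted, was at 290.3, 285, 354 and 284 CPM in control replicates 1 to 4 and at 1295, 924, 825 and 447 CPM in transgenic ones. All 4 transgenic libraries were above all 4 controls, and Gstm1 was the sole member for which this held, where the share of all genes separated in this direction was 2.77%. Its fitted difference was a log2 fold change of 1.52 ± 0.28 (SE), or 2.88-fold, with an adjusted p of 0.219 in edgeR's quasi-likelihood test.

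Gstm3, the closest relative of Gstm1, was at 34.02, 33.4, 90.9 and 36.2 CPM in control and 285, 125, 95.2 and 74.3 CPM in transgenic epithelial cells. Control replicate 3 lay within the transgenic range and transgenic replicate 1 far above the others. The fitted log2 fold change was 1.57 ± 0.49, with an adjusted p of 0.322. Leaving out transgenic replicate 1 gave 1.03 and leaving out control replicate 3 gave 2.07, neither past the threshold.

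Gstp1, the main Pi enzyme, which also binds and restrains the stress kinase JNK, was at 215, 216, 481 and 216 CPM in control and 797, 467, 368 and 365 CPM in transgenic epithelial cells. Gstp2, whose product is the less active of the pair toward standard substrates, was at 45.4, 43.6, 178 and 54.1 CPM in control and 358, 189, 166 and 76.5 in transgenic cells. For both genes 3 control libraries sat together at the bottom and control replicate 3 stood among the transgenic ones. The log2 fold changes were 0.82 ± 0.35 for Gstp1 and 1.29 ± 0.57 for Gstp2, with adjusted p of 0.463 and 0.474. Without control replicate 3 they were 1.21 and 2.05, and without transgenic replicate 1 they were 0.52 and 0.86. Summing the pair before the fit gave 0.94, with an adjusted p of 0.456.

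The other 5 Mu genes differed less between the epithelial genotypes. Gstm4 and Gstm6 had log2 fold changes of 0.69 ± 0.37 and 0.604 ± 0.33, and Gstm2 one of 0.34 ± 0.17. Gstm7, at 10.1 to 13.7 CPM in control and 9.08 to 17.7 CPM in transgenic libraries, had 0.079 ± 0.23. Gstm5 was at 42.7, 42.8, 40.4 and 42.5 CPM in control and 47.4, 43.1, 41.9 and 37.4 CPM in transgenic cells, a log2 fold change of 0.012 ± 0.12 with an approximate 95% interval of -0.23 to 0.25.

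Over the 9 members in epithelial cells, edgeR called 0, as it called 0% of all 12941 genes tested. Unadjusted p was under 0.05 for 4 members (Gstm1, Gstm3, Gstp1 and Gstp2), against 10.4% of all genes. The fitted difference was above 0 for 9 of 9 members and for 50.1% of all genes, with a median of 0.69 over members and 0.00022 over all genes. DESeq2 called 2 members, Gstm1 and Gstm3, where it called 1.55% of all genes, and limma's voom with quality weights called 4, where it called 9.98%. Without the 2 libraries that stood apart, edgeR called 4 members: Gstm1 (1.35, adjusted p = 0.0156), Gstm3 (1.51, 0.00907), Gstp1 (0.89, 0.00919) and Gstp2 (1.59, 0.0183), where 6.43% of all genes were called. Those 2 libraries were chosen with their values known from earlier work on these data.

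In untreated colon wall, Gstm1 had the largest fitted difference between genotypes, and no member passed. It was at 477, 473, 411 and 276 CPM in control and 1170.4, 461, 988 and 1142 CPM in transgenic wall. Transgenic replicate 2 lay inside the control range, while the other 3 transgenic libraries were above 2 times the highest control. The log2 fold change was 1.201 ± 0.39, with an adjusted p of 0.239, and 1.43 without that library, with an adjusted p of 0.219.

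The same library was low for the other members with a difference. Gstm3 was at 57.6, 50.99, 51.4 and 31.3 CPM in control and 130.3, 47.6, 96.7 and 122 CPM in transgenic wall, and Gstp2 at 127, 90.2, 115 and 72.6 and 151, 65.3, 167 and 213 CPM. In both genes transgenic replicate 2 was below the control maximum and the remaining transgenic libraries above it. Gstp1 was at 392, 322, 345 and 231 CPM in control and 544, 315, 340.3 and 492 CPM in transgenic wall, where replicates 2 and 3 lay within the control range. The log2 fold changes were 1.05 ± 0.66 for Gstm3, 0.56 ± 0.403 for Gstp2 and 0.39 ± 0.31 for Gstp1.

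Gstm2, Gstm4, Gstm5, Gstm6 and Gstm7 had fitted values from -0.04 (Gstm5) to 0.33 (Gstm6) in untreated wall, each smaller than its SE or near it. Of the 9 members, 0 were called, against 0.224% of 16074 genes, 1 (Gstm1) had an unadjusted p under 0.05, against 10.5%, and 8 were above 0, against 47.2%. DESeq2 called 0 members as well, given without its share of all genes. In limma's voom with quality weights Gstm1 alone was called, where 15.5% of all genes were. Groups overlapped for all 9, where 3.79% of genes were separated upward.

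In DSS-treated wall, the transgenic libraries were spread from the control level to several times above it. Gstm1 was at 240.4, 124, 255 and 129.6 CPM in control and 194, 337, 612 and 779 CPM in transgenic wall, with transgenic replicate 1 inside the control range and replicates 2 to 4 above it. Gstp1 was at 179, 166, 208 and 168 and 183, 217, 441 and 627 CPM, and Gstp2 at 54.5, 57.3, 52.3 and 45.2 and 52.6, 80.8, 134 and 279.7 CPM. For all 3 genes transgenic replicate 1 was at the control level and replicate 4 was the highest.

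The log2 fold changes in DSS-treated wall were 1.36 ± 0.39 for Gstm1, 1.02 ± 0.31 for Gstp1 and 1.39 ± 0.41 for Gstp2, with adjusted p of 0.8198, 0.944 and 0.934. Without transgenic replicate 4 those of Gstp1 and Gstp2 were 0.68 and 0.81. Gstm3 was at 24.2, 2.98, 2.16 and 2.72 CPM in control and 9.22, 19.1, 54.4 and 51.6 CPM in transgenic wall. Here control replicate 1 stood alone among controls, and the other 3 controls were below every transgenic library. The fitted value of 2.06 ± 0.69 (adjusted p = 0.9999) became 3.66 without that control library, with an adjusted p of 0.0484.

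Gstm6 had 0.92 ± 0.42 in DSS-treated wall, Gstm2 0.42 ± 0.28, Gstm4 0.36 ± 0.25, Gstm7 0.24 ± 0.25 and Gstm5 0.021 ± 0.22. In all, edgeR called 0 of 9 members there, against 0.0933% of all genes. DESeq2 and voom also called 0 members, given without their shares of all genes. Unadjusted p was under 0.05 for 5 members (Gstm1, Gstm3, Gstm6, Gstp1 and Gstp2), against 2.53% of all genes, and the fitted value was above 0 for 9, against 45%. For no member were all transgenic libraries above all controls, as they were for 0.765% of genes. The median was 0.92 over members and -0.019 over all genes.

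Averaged over untreated and DSS-treated wall, 16 libraries in all, the transgene contrast was 1.28 ± 0.28 for Gstm1 (adjusted p = 0.0734), 1.56 ± 0.48 for Gstm3, 0.97 ± 0.29 for Gstp2, 0.71 ± 0.22 for Gstp1 and 0.62 ± 0.29 for Gstm6. None of the 9 passed, where 0.274% of all genes did, and these 5 had an unadjusted p under 0.05, against 4.79%. Gstm1 passed without untreated transgenic replicate 2 (adjusted p = 0.0233) or without DSS-treated transgenic replicate 1 (0.0102), and in DESeq2 (8.84e-04, 0.653% of all genes called), while voom called Gstm1 and Gstm3 (1.27% of all genes). Gstm3 passed without DSS-treated control replicate 1, at 2.36 (adjusted p = 0.00475). Gstm5 was at -0.0093 ± 0.15, with an interval of -0.31 to 0.29.

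**Figure D2:**
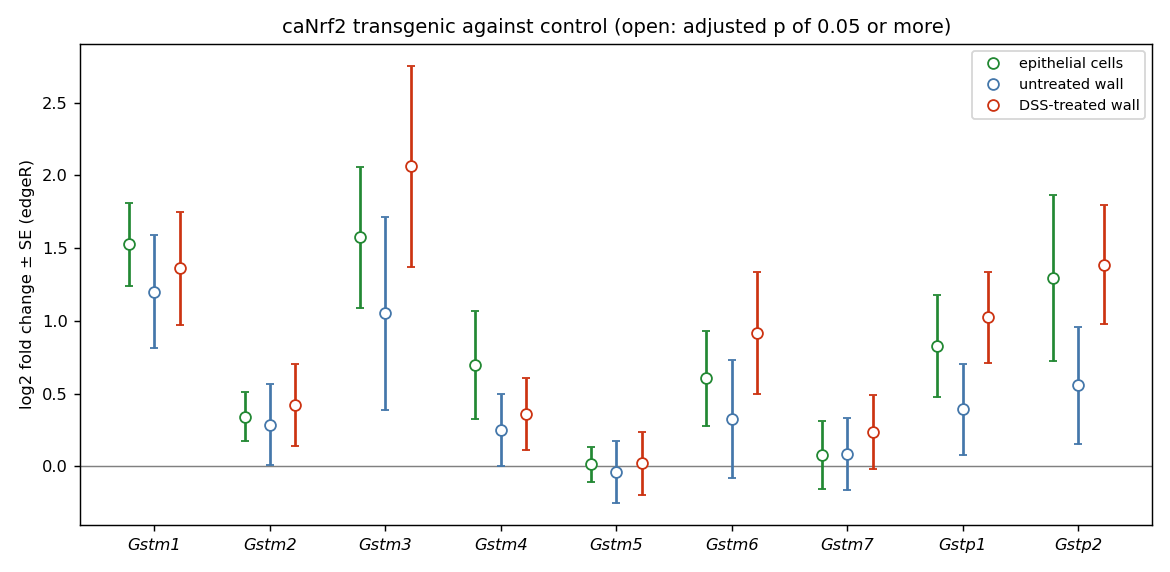
Log2 fold change of transgenic against control libraries for each member, with its SE from edgeR, in epithelial cells (green), untreated wall (blue) and DSS-treated wall (red); open circles did not pass. Gstm1 and Gstm3 have values of 1.05 or more in all 3 settings, and Gstm5 lies between -0.04 and 0.02.

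Other genes of the pathway passed in wall where the Mu and Pi genes did not. Of 11 other cytosolic glutathione S-transferases tested, 4 rose in the averaged wall contrast: the Alpha class genes Gsta1 (3.61 ± 0.48), Gsta2 (7.53 ± 0.97) and Gsta3 (2.69 ± 0.53), and the Omega class gene Gsto1 (0.94 ± 0.17). Of 15 genes of glutathione synthesis, import and reduction, 4 rose: Gclc (2.81 ± 0.32) and Gclm (1.82 ± 0.27), the subunits of the rate-limiting ligase, Slc7a11 (2.67 ± 0.37), the cystine importer, and Gsr (0.798 ± 0.15), which reduces oxidised glutathione. Of 6 conjugate pumps, Abcc1 (0.68 ± 0.11), Abcc2 (3.79 ± 0.43) and Abcc4 (1.75 ± 0.23) rose. Among 12 NRF2 target enzymes outside conjugation, Cbr3 (2.82 ± 0.43) and Nqo1 (2.64 ± 0.36) rose, as did Mafg (0.801 ± 0.14), an NRF2 partner, among 8 regulators. None of the 4 mitochondrial and microsomal transferases was called, and in epithelial cells no gene of any of these lists was. The 3 with the smallest p there were Abcc4 (1.86 ± 0.31), Gsta3 (1.87 ± 0.34) and Nfe2l2 (0.88 ± 0.19), each with an adjusted p of 0.219 in edgeR. No marker of the 9 cell type lists was called in any of these transgene contrasts.

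The 2 genotype contrasts without DSS were also compared between tissues. The difference, epithelial cells minus untreated wall, was 0.296 ± 0.42 for Gstm1, 0.51 ± 0.58 for Gstm3, 0.42 ± 0.41 for Gstp1 and 0.73 ± 0.66 for Gstp2, and from -0.04 to 0.43 for the other 5. None of the 9 members passed, nor did any of 15073 genes (0%), and no member had an unadjusted p under 0.05, against 7.98% of genes. DESeq2 and voom called 0 members, given without their shares of all genes. The approximate interval for Gstm1 ran from -0.52 to 1.12, so that these data bound the difference only roughly and do not show that the tissues act alike.

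The size of the class and its make-up are summarised by shares of TPM, given as a description. Gstm1 made up 52.3, 51.5, 48.3 and 52.03% of the summed Mu class TPM in control epithelial cells and 65.7, 69.6, 67.7 and 57.3% in transgenic ones. In untreated wall the shares were 56.4, 55.1, 52.7 and 54.1% in controls and 70.8, 55.8, 71.1 and 69.6% in transgenic mice. After DSS they were 53.2, 51.5, 64.9 and 50.7% and 63.3, 67.9, 69.98 and 71.96%. The epithelial groups did not overlap, and in wall they overlapped through untreated transgenic replicate 2, which sat at the control level, and through DSS-treated control replicate 3 and transgenic replicate 1.

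The summed Mu class had a median of 841 TPM in control and 1899 TPM in transgenic epithelial cells, 1037 and 2135 TPM in untreated wall, and 480 and 1073 TPM in DSS-treated wall. The Pi pair summed to a median of 759 and 1628 TPM in epithelial cells, 1070 and 1566 TPM in untreated wall and 665 and 1257 TPM in DSS-treated wall, control first. Gstp2 supplied 24.3, 21.7, 24.8 and 23.7% of the Pi sum in untreated control wall and 21.5, 16.9996, 32.6 and 29.96% in transgenic wall. In epithelial cells its share was 17.2, 16.7, 26.8 and 19.9% in control and 30.7, 28.5, 30.8 and 17.2% in transgenic libraries, and after DSS it was 23.1, 25.4, 19.9 and 20.98% and 22.1, 26.9, 23.1 and 30.6%. The genotypes overlapped in each of these pairs of groups, and the share rests on the division of reads between near-identical copies.

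**Figure D3:**
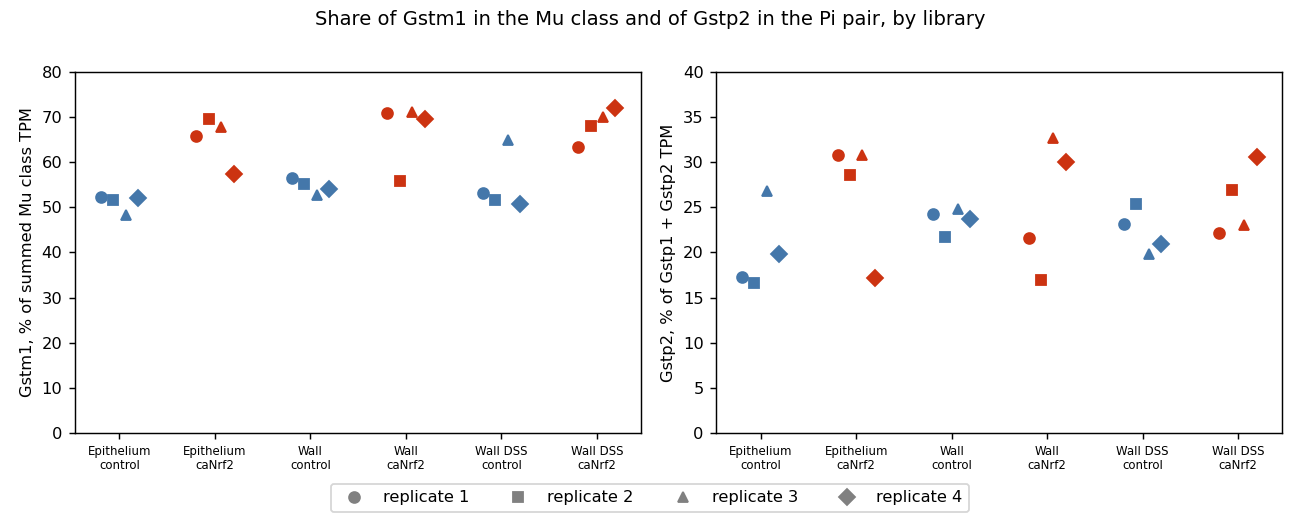
Share of Gstm1 in the summed Mu class TPM (left) and of Gstp2 in the summed Pi pair TPM (right), in percent, for every library; blue is control and red caNrf2. Gstm1 supplies 48.3% to 64.9% of the Mu class in control libraries and 55.8% to 72.0% in transgenic ones, and the Gstp2 share overlaps between genotypes in all 3 pairs of groups.

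DSS lowered most of the class in control wall. Against untreated control wall, 7 of the 9 members fell: Gstm1, Gstm2, Gstm3, Gstm5, Gstm6, Gstm7 and Gstp1, and 16.1% of all 16074 genes were called lower, or 39.2% in either direction. The other 2, Gstm4 and Gstp2, had fitted values of -0.58 ± 0.25 and -0.95 ± 0.41 with adjusted p of 0.0707 and 0.0722. The median over members was -1.13, and 0.063 over all genes. Groups did not overlap for 6 members (Gstm1, Gstm3, Gstm6, Gstm7, Gstp1 and Gstp2), where 14.7% of all genes were separated in this direction. In bulk tissue, fewer cells of a type and less RNA per cell cannot be told apart.

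Gstm7 had the smallest p of the class. It was at 18.6, 20.1, 19.2 and 13.3 CPM in untreated and 8.15, 4.75, 6.14 and 5.33 CPM in DSS-treated control wall, with every DSS library below every untreated one. The log2 fold change was -1.55 ± 0.26, or 0.342 times the untreated level, with an adjusted p of 4.57e-04. Its neighbour Gstm6 was at 23.7, 25.2, 27.5 and 16.5 CPM untreated and 11.5, 4.29, 3.62 and 4.04 CPM after DSS, a change of -1.98 ± 0.43 (adjusted p = 0.00222). DSS-treated replicate 1 was the highest of its group and still below all untreated libraries.

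Gstm3 had the largest fall of the class. It went from 57.6, 50.99, 51.4 and 31.3 CPM in untreated to 24.2, 2.98, 2.16 and 2.72 CPM in DSS-treated control wall, so that 3 of 4 DSS libraries held under 10% of the lowest untreated one, and replicate 1 did not. The log2 fold change was -2.57 ± 0.703 (adjusted p = 0.009203) and -4.18 without that library (adjusted p = 1.14e-04). Gstm2, whose human counterpart detoxifies catechol quinones, was at 139, 154, 127 and 85.4 CPM untreated and 89.3, 39.5, 43.7 and 47.9 CPM after DSS. DSS-treated replicate 1 lay above the lowest untreated library, and the change was -1.199 ± 0.28 (adjusted p = 0.00392).

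Gstm1 changed by -1.13 ± 0.39 (adjusted p = 0.0302), and its untreated control libraries, given above, were all above its DSS-treated ones. The call was lost without untreated replicate 1 or 2 or DSS-treated replicate 2 or 4, where adjusted p ran up to 0.0903. Gstp1 changed by -0.84 ± 0.31 (adjusted p = 0.0427) and lost its call on leaving out any 1 of these 8 libraries but untreated replicate 4, with adjusted p up to 0.111. Gstm5 was at 47.7, 50.1, 59.3 and 34.2 CPM untreated and 28.2, 30.99, 40.04 and 30.7 CPM after DSS, with overlapping ranges. It changed by -0.56 ± 0.22 (adjusted p = 0.049002) and lost its call without untreated replicate 1, 2 or 3 or DSS-treated replicate 1, 2 or 4, with adjusted p up to 0.105. Gstm2, Gstm3, Gstm6 and Gstm7 kept their calls without any 1 of the 8 libraries.

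In transgenic wall, 3 members fell after DSS: Gstm2 (-1.06 ± 0.28, adjusted p = 0.00734), Gstm6 (-1.39 ± 0.42, 0.0142) and Gstm7 (-1.395 ± 0.25, 7.15e-04), and 18.1% of all genes were called lower, or 41.2% in either direction. Gstm7 was at 18.5, 19.05, 17.4 and 20.4 CPM in untreated and 3.78, 6.003, 8.702 and 10.2 CPM in DSS-treated transgenic wall. Gstm6 was at 32.1, 24.1, 27.7 and 32.7 and 4.27, 6.103, 16.2 and 17.8 CPM, and Gstm2 at 166, 140.3, 141 and 169.5 and 40.99, 61.4, 93.3 and 99.4 CPM. For these 3 genes, and for none of the other 6, the DSS libraries were all below the untreated ones, where 16.7% of all genes were separated this way.

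All the other members also had lower fitted values after DSS in transgenic wall and did not pass, among them Gstm3, whose fitted value was the lowest of the 9. In the Mu class they were Gstm1 (-0.97 ± 0.39, adjusted p = 0.0547), Gstm3 (-1.56 ± 0.67, 0.0719), Gstm5 (-0.4998 ± 0.22, 0.0727) and Gstm4 (-0.47 ± 0.25, 0.132). Gstm1 passed without untreated transgenic replicate 2 (-1.196, adjusted p = 0.0273). Without DSS-treated transgenic replicate 4, Gstm1, Gstm4 and Gstm5 passed, at -1.31, -0.74 and -0.81, which raised the count from 3 to 6, where 44.3% of all genes were called in either direction against 41.2% with it. The Pi pair had the smallest fitted values, -0.203 ± 0.31 for Gstp1 (adjusted p = 0.619) and -0.12 ± 0.402 for Gstp2 (0.821). Gstp2 went to -0.75 without DSS-treated transgenic replicate 4, its highest library.

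Whether DSS acted differently in the 2 genotypes was tested as the difference of the DSS contrasts, transgenic minus control. It was 0.63 ± 0.44 for Gstp1 and 0.83 ± 0.57 for Gstp2, with intervals of -0.23 to 1.49 and -0.29 to 1.94. For Gstm3 it was 1.01 ± 0.94 and for Gstm6 0.59 ± 0.58, and for the remaining 5 members between 0.06 and 0.16. None of the 9 passed, nor did any of all genes (0%), and 0 members had an unadjusted p under 0.05, against 7.96% of genes. DESeq2 and voom called 0 members, given without their shares of all genes. A fall that passed in controls and not in transgenic wall, as for Gstm1, Gstm3, Gstm5 and Gstp1, was thus not shown to differ between genotypes.

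**Figure D4:**
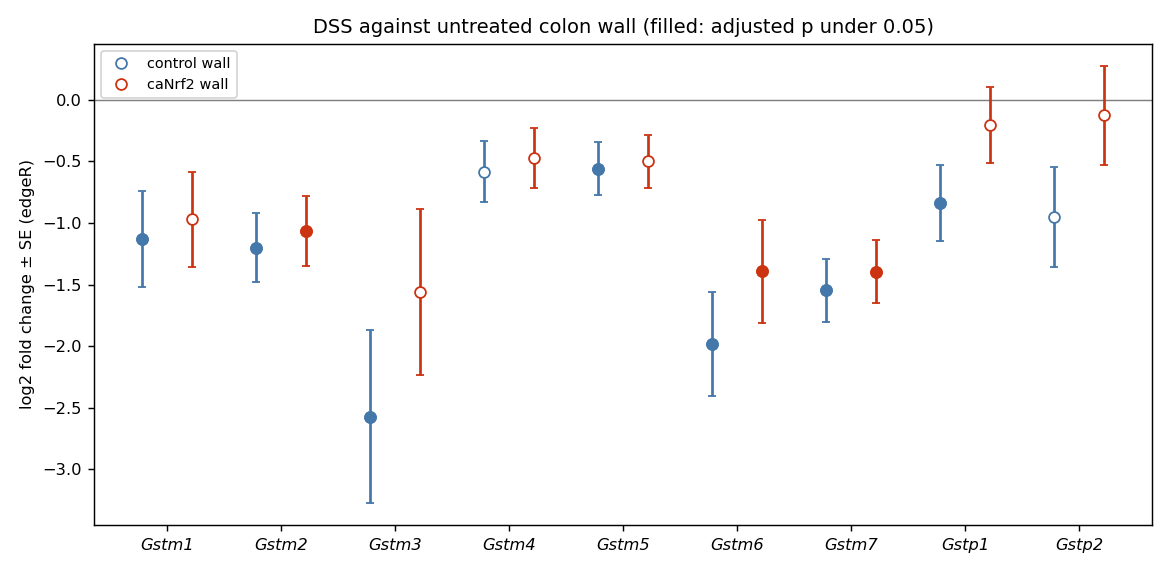
Log2 fold change of DSS-treated against untreated colon wall for each member, with its SE from edgeR, in control (blue) and caNrf2 (red) mice; filled circles passed an adjusted p of 0.05. All 18 values are below 0, from -2.57 for Gstm3 in controls to -0.12 for Gstp2 in caNrf2 wall, and 10 are filled.

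Markers of other cell types moved with DSS. In control wall 6 of 6 fibroblast markers rose, their summed TPM going from 377 to 629 to 1026 to 2105, and 6 of 6 endothelial markers rose, from 36.05 to 56.2 to 115 to 146. Of 8 leukocyte markers 6 rose (163 to 389 to 390.4 to 1210.3 TPM), and of 7 neuron and glia markers 6 rose (50.4 to 90.5 to 96.99 to 180.2 TPM). Of 5 crypt and stem markers tested 4 fell, Ascl2, Axin2, Ephb2 and Lgr5 (69.9 to 133 to 37.95 to 52.8 TPM for the 6 on the list), and of 9 epithelium markers 3 fell, Cdx1, Epcam and Krt18 (12646 to 16509 to 9572 to 13879 TPM). In transgenic wall the counts were 6 of 6, 6 of 6, 5 of 8 and 7 of 7 higher, and 3 of 5 and 1 of 9 lower, in the same order. Smooth muscle markers rose for 1 of 8 in control and 3 of 8 in transgenic wall, goblet markers for 1 and 2 of 6 tested, and of 8 absorptive colonocyte markers 1 rose in each genotype and 3 fell in transgenic wall. The part of these shifts in the fall of the Mu and Pi genes was not tested.

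Other genes of the pathway changed with DSS in both directions. In control wall 4 of 11 other cytosolic transferases fell, the Alpha gene Gsta3 (-3.04 ± 0.77), the Theta genes Gstt2 (-0.73 ± 0.19) and Gstt3 (-0.602 ± 0.21) and the Zeta gene Gstz1 (-0.61 ± 0.14), and 0 rose. Of 4 mitochondrial and microsomal transferases, Mgst1 fell (-0.598 ± 0.22). Of 12 NRF2 target enzymes outside conjugation, Cbr3 (-2.62 ± 0.61), Nqo1 (-1.38 ± 0.49), Tkt (-0.94 ± 0.22) and G6pdx (-0.56 ± 0.196) fell. Of 15 genes of glutathione metabolism, Gss (-0.88 ± 0.28), Gsr (-0.77 ± 0.21) and Dpep1 (-1.403 ± 0.46) fell, while Ggt5 (2.15 ± 0.37) and Ggt7 (0.77 ± 0.27) rose. Abcc5 was the 1 conjugate pump of 6 that changed, at 1.24 ± 0.25, and among the 8 regulators Bach1, a repressor that competes with NRF2, fell (-0.89 ± 0.23). In transgenic wall Gstt2, Gstz1 and Hpgds fell among the other cytosolic transferases, and of the NRF2 target enzymes Tkt fell and Me1 rose. There, too, Mgst1 fell (-0.56 ± 0.22) and Abcc5 rose (1.38 ± 0.25). Of the 15 glutathione genes Ggt5 (2.07 ± 0.37), Ggt7 (0.97 ± 0.27) and Slc3a2 (0.54 ± 0.14), a subunit of the cystine importer, rose, Gss (-0.73 ± 0.27) and Ggt6 (-0.74 ± 0.25) fell, and 0 of the 8 regulators were called.

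Between tissues, control epithelial cells and untreated control wall differed for 1 member. Gstm6 was lower in epithelial cells, by a log2 fold change of -0.83 ± 0.27 (adjusted p = 0.0213), where 19.7% of 15073 genes were called lower and 38.6% in either direction. In TPM it was at 21.8, 21.6, 17.1 and 21.7 in epithelial cells and 35.02, 40.8, 38.8 and 31.8 in wall, with no overlap. On the CPM scale of this fit it was the sole member whose groups were separate, where 21.1% of all genes were separated in this direction, and in TPM Gstm1 and Gstm7 were also lower in every epithelial library. Gstm7 had -0.48 ± 0.19 (adjusted p = 0.0574). The other 7 members had fitted values from -0.39 (Gstm1) to 0.05 (Gstm3) and did not pass. Without epithelial control replicate 3, Gstp2 was also called lower in epithelial cells, at -1.09 (adjusted p = 0.0468), against -0.32 ± 0.47 with it, and without untreated control replicate 4 Gstm7 was (0.02101). Markers of other cell types moved with this comparison: 8 of 8 smooth muscle, 6 of 6 fibroblast, 7 of 7 neuron and glia, 4 of 6 leukocyte and 1 of 6 endothelial markers tested were lower in epithelial cells. The summed TPM of fibroblast markers was 3.94 to 91.01 in epithelial cells against 377 to 629 in wall, and that of goblet markers, 4 of 6 of them called higher, 28614 to 38998 against 10069 to 16515. Of the absorptive colonocyte markers 5 were lower and 2 higher, of the crypt and stem markers 3 higher, and of the epithelium markers 2 higher and 1 lower. The part of these shifts was not tested.

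Other pathway genes also differed between the control tissues. Gsta4 (0.69 ± 0.26), Gstt2 (0.46 ± 0.14) and Gstz1 (0.67 ± 0.15) were higher in epithelial cells and Gstt1 (-1.33 ± 0.26) lower, 4 of 11 other cytosolic transferases, and Mgst2 (0.79 ± 0.22) was higher. Of the 8 regulators, Nfe2l2 (0.47 ± 0.17), its inhibitor Keap1 (0.39 ± 0.14) and the partners Mafg (0.796 ± 0.24) and Mafk (0.602 ± 0.22) were higher and Sqstm1 (-0.37 ± 0.14) lower. Dpep1 (1.99 ± 0.69), Me1 (1.34 ± 0.26) and Tkt (0.65 ± 0.18) were higher, Ggt7 (-1.71 ± 0.58) lower, and 0 of 6 conjugate pumps were called.

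Across all 24 libraries, members were compared by how their log2 CPM departed from the 6 group means, given as a description without p. The highest correlations were 0.90 for Gstm4 with Gstp1, 0.89 for Gstm2 with Gstm3, 0.88 for Gstm2 with Gstm7 and 0.88 for Gstp1 with Gstp2. Gstm5 had 0.21 with Gstm3 to 0.61 with Gstm7 among members, and -0.04 with Nfe2l2. With Nfe2l2 the other members had 0.57 (Gstm6), 0.56 (Gstm3), 0.52 (Gstp2), 0.43 (Gstm1), 0.43 (Gstp1), 0.37 (Gstm2), 0.35 (Gstm4) and 0.19 (Gstm7). The libraries share depth differences, cell make-up and, for the Pi pair, reads.

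The 16002 genes that passed the filter over all 6 groups were ranked by likeness to Gstm1 and Gstp1, with the members left out. Those whose levels over the 24 libraries were most like Gstm1 were Cbr3 (r = 0.92), Tsku (0.91), Cbr1 (0.90), Aldh1a7 (0.88) and Gss (0.87). On departures from group means they were Cat (0.90), Nqo1 (0.87), Cbr3 (0.85), Esd (0.83) and Tsku (0.82). For Gstp1 the levels most alike were those of Cbr1 (0.96), Akr1c12 (0.93), Gss (0.91), Alad (0.91) and Akr1c19 (0.89), and the departures those of Taldo1 (0.95), Akr1c12 (0.95), Cbr1 (0.94), Ppdpf (0.93) and Alad (0.93). Cbr1 and Cbr3 are carbonyl reductases, Cat is catalase, Nqo1 a quinone reductase, Gss glutathione synthetase and Taldo1 a pentose phosphate enzyme.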

How the data were processed

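Each deposited file holds, per the file headers, an expected count, a posterior count estimate, TPM and FPKM for each of 30383 RefSeq transcripts. The authors' expected counts are estimated counts, not divided by length or depth, and 39.2% were not whole numbers. The deposited TPM and FPKM values are scaled by length and were used only for levels between genes. RSEM 1.2.11, FastQC and mm10 are listed, per the submitters' processing notes, without role, and the sources used here give no aligner or strand setting. How reads shared by near-identical genes were divided is therefore known only from the values.

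Counts were summed per gene symbol (23329 symbols), rounded, and tested with edgeR 4.0.16 (quasi-likelihood F test, TMM scaling, filterByExpr by group, R 4.3.3), with Benjamini-Hochberg adjustment over all genes tested and a threshold of 0.05. The 8 epithelial libraries (12941 genes), the 16 wall libraries (16074) and the 8 epithelial with the 8 untreated wall libraries (15073) were each fitted together, for 9 comparisons. Standard errors were derived from the fitted value and its F statistic. Intervals are approximate 95% intervals from them by a normal approximation, and are narrower than the F test on so few libraries implies. For Gstm2 in epithelial cells the interval, 0.012 to 0.67, left out 0, while edgeR's quasi-likelihood test gave an unadjusted p of 0.0718. Within groups, the 36 pairs of libraries differed beyond sampling noise (lowest chi-square per gene 10.55), so none was treated as a library deposited more than once. Log2 CPM for correlations used a prior count of 2. The edgeR steps were run on simulated counts for the transgene in epithelial cells and in untreated wall only. There all genes of a comparison had the same spread and no library stood apart, so that run does not cover such libraries. Alternatives were DESeq2 1.42.0, limma 3.58.1 voom, other scaling, no filter, the posterior counts, the Pi pair summed, a replicate block, fewer groups and left-out libraries. The named genes are all 9 members. Of the pathway lists, genes past the threshold are named for the averaged wall contrast, the 2 DSS contrasts and the control tissue contrast. For the transgene in epithelial cells the 3 with the smallest p are named. The 5 genes most like Gstm1 and Gstp1 are named as well. The members, lists and tests were chosen with earlier results of these data known.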

Additional observations from a re-analysis of the deposited data

Results flagged for a closer look

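In 54 sets of 4 libraries (9 members in 6 groups), 9 held a library far from the other 3 by Dixon's ratio. Chance gives about 1 in 20 for a single set of normally distributed values. The sets share libraries and the members vary together, so the count cannot be set against that rate. Of the 9 sets, 6 came from epithelial control replicate 3, with 353.5 CPM for Gstm1, 138.3 for Gstm2, 90.9 for Gstm3, 481.2 for Gstp1 and 178.5 for Gstp2, each the highest of its group, and 40.4 CPM for Gstm5, the lowest. The same library had 29257 summed TPM of absorptive colonocyte markers, where the other 3 controls had 2869 to 4364.5, and 66.1 summed TPM of crypt and stem markers, where they had 198 to 204. Scale matters here: in TPM its Gstm1, at 408, was the lowest of the 4. The other 3 came from DSS-treated control replicate 1, with 89.3 CPM for Gstm2, 24.2 for Gstm3 and 11.5 for Gstm6, each the highest of its group. Its summed fibroblast and crypt markers, 1122 and 38.0 TPM, lay within the range of the other 3 libraries. Its summed leukocyte (390.4 TPM), endothelial (114.9, others 138 to 146), neuron and glia (96.99, others 136 to 180.2) and absorptive colonocyte markers (7871) were the lowest of its group, and its epithelium markers (13879, others 9572 to 12941) the highest.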

How the results depend on the processing

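Replicate numbers are shared between groups, and 9 of 60 same-numbered pairs had deviations correlated above 0.1 (r from -0.34 to 0.30), with no pair of groups, of 15, in which every sample correlated best with its own number. By this measure the numbers gave no sign of pairing the samples. Such correlations cannot show that same-numbered libraries share no animal or batch. With a replicate block the count of members that fell after DSS in controls went from 7 to 5, losing Gstm5 (-0.57, adjusted p = 0.0622) and Gstp1 (-0.86, 0.0524), and no other call of a member changed. Counts of called members moved as follows, and the cause was not tested. For the transgene in epithelial cells, 0 became 2 in DESeq2, 4 in voom and 4 without the 2 libraries that stood apart. In untreated wall 0 became 1 in voom, and over all wall 1 in DESeq2 and 2 in voom. For DSS in transgenic wall 3 became 8 in voom and 6 without the 4 libraries with another file-name number. The share of all genes called there went from 41.2% to 58.3% and 43.6%. Between tissues 1 became 2 with DESeq2's scaling, in DESeq2 and with no filter (Gstm7 each time), 7 in voom and 4 without the 2 epithelial libraries, where the share of all genes went from 38.6% to 36.5%, 40.7%, 29.8%, 67.9% and 47.6%. Leaving out 1 library gave 4 to 9 for DSS in controls, 3 to 6 for DSS in transgenic wall, 1 to 2 between tissues, 0 to 1 for the transgene in DSS-treated wall and over all wall, and 0 throughout for the other 4 comparisons. These ranges and the count with a replicate block are given without the share of all genes called in each fit. They therefore do not set the members apart from other genes. The posterior counts and the summed Pi pair changed none of these counts, and FPKM in place of TPM gives the same shares by construction.

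Some fitted values changed sign. In voom the transgene value was -0.036 for Gstm5 and -0.15 for Gstm7 in epithelial cells and -0.15 for Gstm5 in DSS-treated wall. Without the 2 epithelial libraries it was -0.068 for Gstm5 and -0.095 for Gstm7, and the tissue difference of Gstm5 was -0.046. Without the 4 libraries with another file-name number Gstm7 was at -0.076, -0.028 and -0.052 in untreated, DSS-treated and all wall, and Gstm5 at -0.27 in DSS-treated wall. The genotype difference of the DSS effect was then -0.043 for Gstm1, -0.039 for Gstm4 and -0.026 for Gstm5. Gstm3 in epithelial cells against wall was -0.038 with DESeq2's scaling, -0.040 in DESeq2, -0.54 in voom, -0.030 with no filter and -0.47 without the 2 epithelial libraries. The tissue difference of Gstm7 was 0.0037 with DESeq2's scaling and 0.00055 in DESeq2. Leaving out 1 library moved the genotype difference of the DSS effect from -0.0899 to 0.43 for Gstm1, -0.066 to 0.33 for Gstm4 and -0.15 to 0.202 for Gstm5. It moved the tissue difference from -0.077 to 0.18 for Gstm2, -0.019 to 0.99 for Gstm3, -0.083 to 0.16 for Gstm5 and -0.19 to 0.094 for Gstm7, and epithelial cells against wall from -0.47 to 0.18 for Gstm3 and -0.37 to 0.092 for Gstm4. The transgene value of Gstm5 ran from -0.038 to 0.068 in epithelial cells, -0.17 to 0.063 in untreated, -0.22 to 0.15 in DSS-treated and -0.15 to 0.061 in all wall, that of Gstm7 from -0.097 to 0.22 in epithelial cells and -0.032 to 0.15 in untreated wall, and the DSS effect on Gstp2 in transgenic wall from -0.75 to 0.103.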
